A study of Mus musculus with 6 samples.

Results

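The mouse C-type lectin genes with a Clec number and the Cd209 genes were described in atherosclerotic aorta. Members were all rows of the deposited tables whose symbol starts with Clec and a digit or with Cd209. This gave 41 genes of 36557 rows, and 31 of them passed the low-count filter and were tested among 17392 rows. RNA had been sequenced from the arch and thoracic part of the mouse aorta in 6 libraries. The knockout group held 3 libraries of genotype Apoe-/- MiR26b-/-, and the control group held 3 libraries of genotype Apoe-/- control. All animals lacked Apoe, which slows lipoprotein clearance and lets plaques form, and all had 4 weeks of high-fat diet (HFD) before the vessels were flushed with PBS. Strain, age and sex were not given in the labels used here, and the labels do not say whether a library is 1 animal or a pool. The p-values therefore measure the spread between these libraries, which may in part be technical.

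C-type lectins are receptors and secreted proteins that share a fold first known for calcium-dependent sugar binding. On phagocytes and dendritic cells, activating members signal through an immunoreceptor tyrosine motif, of their own or of an adaptor such as Fcer1g or Tyrobp, to the kinase Syk and the adaptor Card9. Others carry an inhibitory motif that recruits phosphatases, or take up glycoproteins for degradation and presentation, and members on endothelium or in stroma serve adhesion and matrix functions. The question was how members of phagocytes and dendritic cells compared with those of endothelium and stroma when MiR26b was absent. Roles were assigned from general knowledge of each gene, which gave 22 phagocyte and dendritic, 6 endothelial and stromal, and 13 other members.

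The mature strand of the deleted microRNA and its seed matches among the members are shown first, because they are the part of the sequence through which a microRNA can act on a transcript directly. Capitals mark the seed (bases 2 to 8) in miR-26b-5p, encoded at bases 74394324 to 74394344 of chromosome 1, plus strand (RefSeq, GRCm38.p6), and the 7-base match TACTTGA in the 3′ UTRs.
miR-26b-5p: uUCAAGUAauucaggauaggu
Clec4n 3′ UTR site: tgaactgctgtTACTTGAaagtataagat
Clec14a 3′ UTR site: ggtgacccaatTACTTGAatattgtcccc
The match begins at base 399 of the 436-base 3′ UTR of Clec4n and at base 2133 of the 2735-base 3′ UTR of Clec14a, and in both it extends to the 8-base form TACTTGAA. These were the 2 members with a match among 38 that have an annotated 3′ UTR in GENCODE mouse release 21 (5.3%). Among all 21045 protein-coding genes with a 3′ UTR, 2034 held the 7-base match on the transcript strand (9.7%) and 880 the 8-base form (4.18%). The 3′ UTRs of the members had a median length of 683.5 bases, against 960 bases over all genes. Of the 2 genes, Clec4n rose in the knockout and Clec14a did not pass the test (values below). The seed is shared with miR-26a-5p, which comes from other loci, and the other 36 members have no such match in the longest 3′ UTR.

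Before the members' results, 1 feature of the libraries bears on all of them. On the first principal component of all tested rows (67.8% of the variance), knockout replicate 3 stood at -0.53, between the other knockout libraries (42.05 and 49.34) and the controls (-38.07 to -23.55). Deposited totals were 51634139 to 54817547 estimated counts per library, so 3 counts correspond to 0.0561 to 0.0576 CPM (counts scaled to a common library total). Of 11 general macrophage markers, 10 were called higher in the knockout and 1, Mertk, lower. Their summed level was 1484 to 3815 CPM in knockout libraries, lowest in replicate 3, and 703.8 to 850.6 CPM in controls. In bulk tissue, more cells of a type and more RNA per cell cannot be told apart. The mean log2 CPM of brown and white fat markers was 4.37, 4.82 and 6.07 in the knockout libraries and 6.43, 5.93 and 5.12 in the controls, and edgeR called 0 of these 16 genes. At an unadjusted p under 0.05, 3 of them were lower in the knockout, and DESeq2 called 3 lower. Markers of other cell types moved as well. Of 6 smooth muscle markers 3 were called lower and all had a negative value, with a summed level of 21432 to 25411 CPM in knockout libraries and 31632 to 36359 CPM in controls. All 9 rows of foam cell markers were called higher, as were 4 of 7 markers of conventional type 2 dendritic cells (summed level 254 to 475 CPM in knockout libraries, 154 to 184 CPM in controls). Among monocyte markers 2 of 5 were higher (165 to 250 CPM in the knockout, 122 to 154 CPM in the controls), and among rows of lymphatic endothelial markers 3 of 7 (117 to 175 CPM in the knockout, 54.7 to 62.6 CPM in the controls). Pdpn in the lymphatic list is a pair of identical rows, both in the count and the sum. Each stood at 13.5 to 36.1 CPM in the knockout and 9.05 to 12.2 CPM in the controls, and was not called. Trem2 in the foam cell list is also such a pair, so its 9 rows are 8 genes. EdgeR called 1 higher in each of the lists of neutrophil, cartilage, plasmacytoid dendritic and T or natural killer cell markers. These lists differed: the median log2 fold change was 1.72 for neutrophil and -0.22 for plasmacytoid dendritic markers. All 6 tested neutrophil markers had a positive value, 3 had an unadjusted p under 0.05, and DESeq2 called 2 higher. Their summed level was 17.6 to 62.8 CPM in knockout libraries, lowest in replicate 3, and 10.3 to 18.2 CPM in controls. Of the B cell, mast cell and mesothelial or epithelial markers, edgeR called 0. At an unadjusted p under 0.05, 2 B cell markers were lower, and DESeq2 called 1 B cell marker lower. The summed B cell level was 60.01 CPM in control replicate 2, against 9.05 and 6.77 CPM in control replicates 1 and 3. Knockout libraries, at 6.08 to 8.83 CPM, overlapped those 2 controls, so the lower B cell values rest largely on 1 control library. Control replicate 2 also had the highest mesothelial or epithelial sum, 77.68 CPM, against 20.17 and 19.61 CPM in the other controls and 10.14 to 35.70 CPM in knockout libraries. The part of these shifts in the members' values was not tested.

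Taken over all roles, 11 of the 31 tested members were higher in the knockout and 0 were lower (edgeR quasi-likelihood test, Benjamini-Hochberg adjusted p under 0.05). Of all tested rows, 6.5% were called higher (1131) and 3.84% lower (667), and with library size alone as the scaling this split was 1476 and 447 with the members' counts at 11 and 0. No member was lower at an unadjusted p under 0.05 either, and DESeq2 and limma-voom also called 0 members lower. The knockout and control values did not overlap for 19 of 31 members, where 36.1% of all tested rows showed no overlap. The calls divided by role. Among phagocyte and dendritic members, 10 of 19 tested were higher, with a median log2 fold change of 1.52, and 18 of the 19 had a positive value. These counts depend on the assigned roles. Clec12b, an inhibitory receptor like Clec12a, was placed among the other members and had a log2 fold change of -0.53, not called. Among endothelial and stromal members, 0 of 4 tested were called in either direction by edgeR, DESeq2 or limma-voom, 0 had an unadjusted p under 0.05, and the median log2 fold change was 0.11. Over all tested rows that median was -0.0033. The endothelial and stromal class is small, and the difference between the classes was not tested.

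The calls depended on which library was left out and on the test. Leaving out knockout replicate 1 or 2, or any control library, left 0 members called by edgeR, with 14 to 19 members at an unadjusted p under 0.05, while DESeq2 called 12 to 14 members higher in the same subsets. Without knockout replicate 3 both tools called 16 members higher. With the fat marker level as a covariate, only Clec2d of the 31 tested members was called by edgeR. The median log2 fold change of the phagocyte and dendritic class was then 1.39, and it ranged from 1.25 to 1.69 when 1 library was left out.

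**Figure D1:**
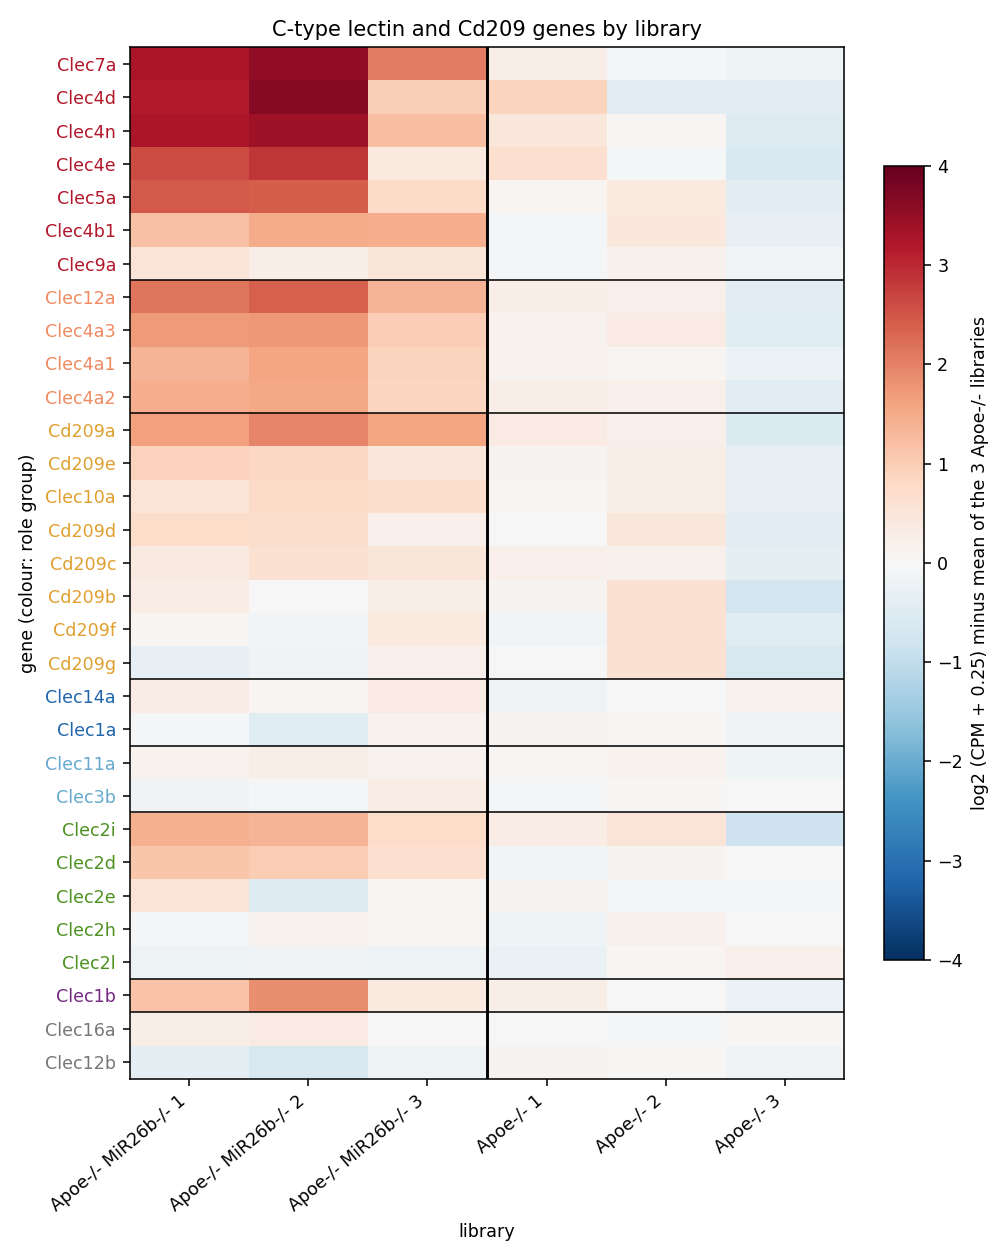
Level of each of the 31 tested members in each library (columns, Apoe-/- MiR26b-/- on the left, Apoe-/- control on the right) as log2(CPM + 0.25) minus the mean of the 3 controls, with rows grouped by role. Clec7a, Clec4n, Clec5a, Clec12a and the DCIR rows are high in knockout replicates 1 and 2 and lower in replicate 3, Clec4b1 and Clec9a are about as high in replicate 3, and the endothelial and stromal rows stay near 0.

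The activating receptors showed the highest folds. Of 7 tested, 4 rose, where 6.5% of all tested rows were called higher. The log2 fold changes ran between 0.45 and 3.11 with a median of 2.38. Clec7a (ENSMUSG00000079293, chromosome 6, 129461591 to 129472779, minus strand, GRCm38) encodes Dectin-1, the receptor for fungal beta-glucans. It stood at 91.1, 111 and 38.7 CPM in the knockout libraries and at 11.1, 8.68 and 8.20 CPM in the controls. The lowest knockout library was above the highest control by more than the range of the controls. The log2 fold change was 3.11 (SE 0.40, edgeR adjusted p = 0.0177), or 8.61-fold. GENCODE release 21 gives this gene the biotype polymorphic pseudogene, although it has protein-coding transcripts in the same annotation.

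The 250 bases before a RefSeq start of Clec7a are shown with those of Clec4e and Clec4b1. These 2 are the activating members with 2 matches to the motif searched and no annotated exon in the window. Capitals mark GAGGAA, the core of the purine box bound by PU.1, a factor of myeloid cells, or its reverse complement TTCCTC (RefSeq, GRCm38.p6).
Clec7a promoter, chr6:129472780-129473029, minus strand: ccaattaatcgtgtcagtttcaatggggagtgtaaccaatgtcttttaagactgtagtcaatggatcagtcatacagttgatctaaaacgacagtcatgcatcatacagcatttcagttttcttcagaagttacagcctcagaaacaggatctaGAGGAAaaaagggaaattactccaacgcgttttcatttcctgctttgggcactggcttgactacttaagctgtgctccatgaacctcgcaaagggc
Clec4e promoter, chr6:123289872-123290121, minus strand: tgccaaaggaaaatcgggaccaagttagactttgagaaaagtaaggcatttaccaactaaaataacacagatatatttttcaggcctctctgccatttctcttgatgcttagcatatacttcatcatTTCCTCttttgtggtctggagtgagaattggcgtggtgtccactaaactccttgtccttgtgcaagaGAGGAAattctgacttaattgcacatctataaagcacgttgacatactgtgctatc
Clec4b1 promoter, chr6:123049712-123049961, plus strand: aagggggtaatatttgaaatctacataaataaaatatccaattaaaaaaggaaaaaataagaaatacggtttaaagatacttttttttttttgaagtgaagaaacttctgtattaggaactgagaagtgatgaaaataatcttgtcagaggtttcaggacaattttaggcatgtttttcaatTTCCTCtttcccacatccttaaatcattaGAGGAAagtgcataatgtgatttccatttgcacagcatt
On either strand, GAGGAA occurred in this window in 10 of the 19 phagocyte and dendritic members with a promoter in the table, in 2 of 3 endothelial and stromal members and in 3 of 11 others, against 23.3% of 32851 promoters. The AP-1 motif TGANTCA, also on either strand, occurred in 3 of 19, 0 of 3 and 4 of 11, against 6.7% of all promoters. A member counts here if the window of any of its RefSeq starts holds the motif, whereas the 32851 promoters are counted singly. Clec4a3, with more than 1 start, holds GAGGAA before only 1 of them. These matches describe letters in a window and are not binding sites. Several of the other windows overlap annotated exons, and those of Clec12a, Clec9a and Cd209g do so over their whole length.

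The other activating members of chromosome 6 differed in how far knockout replicate 3 followed the other knockouts. Clec4n, which encodes Dectin-2, a mannan receptor that signals through Fcer1g, stood at 24.7, 27.1 and 5.76 CPM in the knockout libraries and at 3.29, 2.5 and 1.58 CPM in the controls. Its groups did not overlap, and its log2 fold change was 2.97 (SE 0.61, edgeR adjusted p = 0.0369). Limma-voom did not call it (adjusted p = 0.106), nor did limma on log2(TPM + 1), where the log2 fold change was 2.09, and over all settings its adjusted p ranged between 9.80e-33 and 0.162. Clec4d, the Mincle partner MCL, stood at 11.2, 15.4 and 2.18 CPM in the knockout, against 2.08, 0.672 and 0.685 CPM in the controls. The third knockout library was just above control replicate 1, and the log2 fold change of 3.06 did not pass (SE 0.80, edgeR adjusted p = 0.0570). Without control replicate 1 the fold of Clec4d was 14.1, against 8.35 with all libraries. Clec4e, which encodes Mincle, a receptor for mycobacterial glycolipid and dead-cell products, stood at 8.70, 10.5 and 1.69 CPM in the knockout and at 2.10, 1.17 and 0.723 CPM in the controls. Here knockout replicate 3 was below control replicate 1, and the log2 fold change of 2.38 was not called (SE 0.71, edgeR adjusted p = 0.0762). DESeq2 called both Clec4d and Clec4e higher, and without knockout replicate 3 edgeR did so as well (adjusted p = 0.003 each). Over all settings the adjusted p ranged between 5.48e-06 and 0.268 for Clec4d and between 8.70e-11 and 0.366 for Clec4e.

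Clec5a, a receptor that signals through Tyrobp, stood at 16.0, 15.8 and 4.90 CPM in the knockout libraries and at 2.91, 3.65 and 1.94 CPM in the controls. It rose by 2.11 on the log2 scale without overlap (SE 0.48, edgeR adjusted p = 0.0438). Limma-voom and limma on the TPM scale did not call it, and over all settings its adjusted p ranged between 4.26e-20 and 0.185. Clec4b1, a short-tailed receptor that pairs with Fcer1g, stood at 1.5, 1.90 and 1.87 CPM in the knockout and at 0.473, 0.788 and 0.361 CPM in the controls. Its log2 fold change was 1.70 (SE 0.30, edgeR adjusted p = 0.0311), and its 3 knockout libraries lay close together. Of its 31-base words, 18.3% also occur in Clec4a2, so reads of these genes can be split between them. Clec9a, the receptor of cross-presenting dendritic cells for filamentous actin of dead cells, had 4.72, 3.93 and 4.53 CPM in the knockout and 3.10, 3.59 and 2.93 CPM in the controls. Its groups did not overlap, but the log2 fold change of 0.45 was not called (SE 0.14, edgeR adjusted p = 0.0800), and its first 474 bases overlap Clec1b on the same strand. Of 7 markers of that dendritic cell type, 3 were called higher (Cadm1, Xcr1 and Batf3), and their summed level was 61.0 to 110 CPM in knockout libraries and 35.0 to 55.4 CPM in controls.

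**Figure D2:**
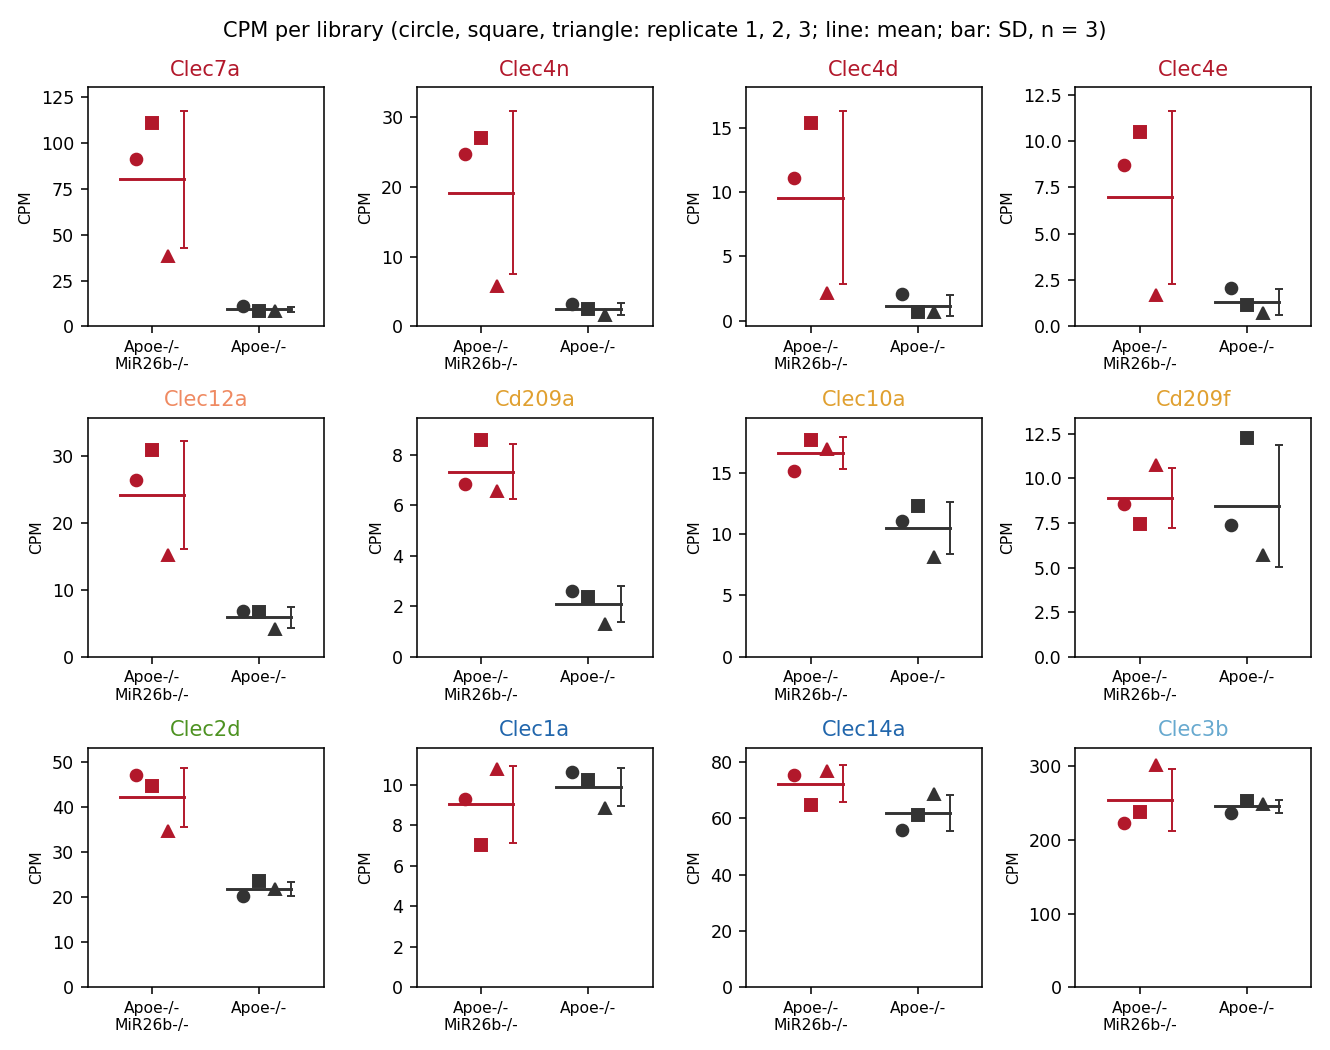
CPM in each library for 12 members of different roles, Apoe-/- MiR26b-/- left and Apoe-/- control right in each panel, with a line at the mean and a bar for the SD (n = 3). Knockout replicate 3 (triangle) lies near the controls for Clec4d and Clec4e, apart from both groups for Clec7a and Clec12a, and with the other knockouts for Cd209a and Clec10a.

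Clec12a and the 3 tested genes of the DCIR group all rose, with no overlap between the groups. Among all tested rows, 6.5% were called higher and 36.1% showed no overlap. Clec12a, an inhibitory receptor of myeloid cells that recognises uric acid crystals, stood at 26.4, 31 and 15.2 CPM in the knockout libraries and at 6.92, 6.65 and 4.11 CPM in the controls. Its log2 fold change was 2.04 (SE 0.31, edgeR adjusted p = 0.0255). The genes of the DCIR group (dendritic cell immunoreceptor and its relatives) moved less and by similar amounts. Clec4a2, which encodes DCIR with its inhibitory motif, stood at 10.7, 11.4 and 6.91 CPM in the knockout and at 4.39, 4.36 and 2.70 CPM in the controls (log2 fold change 1.34, SE 0.26, edgeR adjusted p = 0.0340), and it was not called by limma on the TPM scale. Clec4a3 stood at 15.2, 15.5 and 9.26 CPM in the knockout and at 5.01, 5.78 and 3.18 CPM in the controls (log2 fold change 1.52, SE 0.28, edgeR adjusted p = 0.0325). For Clec4a1 the values were 10.9, 12.9 and 7.92 CPM in the knockout and 4.59, 4.36 and 3.50 CPM in the controls (log2 fold change 1.35, SE 0.20, edgeR adjusted p = 0.0249). Each of the 3 was lowest in replicate 3 in both groups.

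The endocytic receptors were divided. Of 8 tested, 2 rose, and 4 had groups that did not overlap. Over all tested rows, 6.5% were called higher and 36.1% showed no overlap. Cd209a (ENSMUSG00000031494, chromosome 8, 3743397 to 3748984, minus strand), a mouse relative of human DC-SIGN found on dendritic cells and monocytes, stood at 6.85, 8.58 and 6.57 CPM in the knockout libraries and at 2.61, 2.38 and 1.29 CPM in the controls. Its log2 fold change was 1.81 (SE 0.27, edgeR adjusted p = 0.0246), and knockout replicate 3 was close to the other knockouts. Clec10a, a galactose-binding receptor (MGL1) of macrophages and dendritic cells, stood at 15.1, 17.7 and 17.0 CPM in the knockout and at 11, 12.3 and 8.12 CPM in the controls. It had the smallest change of the 11 called members, 0.66 on the log2 scale (SE 0.16, edgeR adjusted p = 0.0486), and 13.7% of its 31-base words also occur in Mgl2. It was not called by limma-voom or by limma on the TPM scale, and over all settings its adjusted p ranged between 0.000623 and 0.154.

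The remaining Cd209 genes did not pass. Cd209f, a member known from resident tissue macrophages, had the highest level of them, at 8.53, 7.42 and 10.7 CPM in the knockout libraries and 7.39, 12.3 and 5.69 CPM in the controls. Cd209g stood at 2.79, 3.19 and 4.13 CPM in the knockout and at 3.61, 5.55 and 2.21 CPM in the controls. Cd209b, the SIGN-R1 receptor of splenic marginal zone macrophages, stood at 2.41, 1.90 and 2.27 CPM in the knockout and at 2.08, 3.03 and 1.05 CPM in the controls. In these 3 genes control replicate 2 was the highest and control replicate 3 the lowest library, so the controls span the knockouts. Their log2 fold changes were 0.07 (SE 0.29, edgeR adjusted p = 0.890), -0.17 (SE 0.34, 0.771) and 0.10 (SE 0.36, 0.884). The sign changed in 6, 3 and 2 of 24 settings, which include fits with 1 library left out. Cd209f shares 36.3% of its 31-base words with Cd209g, so their split is uncertain. Of 10 markers of resident macrophages, edgeR called 1 higher (Mrc1), and at an unadjusted p under 0.05 there were 5 higher and 1 lower, the same counts that DESeq2 called. Their median log2 fold change was 0.26, with a summed level of 1153 to 1195 CPM in knockout libraries against 1015 to 1119 CPM in controls.

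Low-level Cd209 genes had positive but uncalled differences. Cd209c stood at 1.87, 2.26 and 2.05 CPM in the knockout and at 1.64, 1.63 and 1.03 CPM in the controls (log2 fold change 0.52, SE 0.22, edgeR adjusted p = 0.168). It was called on the deposited TPM scale by limma, and 24.7% of its words occur in other genes. Cd209d stood at 2.17, 2.11 and 1.42 CPM in the knockout and at 1.19, 1.75 and 0.799 CPM in the controls, which overlap (0.61, SE 0.32, adjusted p = 0.252). Cd209e stood at 0.393, 0.361 and 0.208 CPM in the knockout and at 0.113, 0.154 and 0.0190 CPM in the controls, between 1.0 and 21.2 estimated counts (1.73, SE 0.57, adjusted p = 0.0978).

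**Figure D3:**
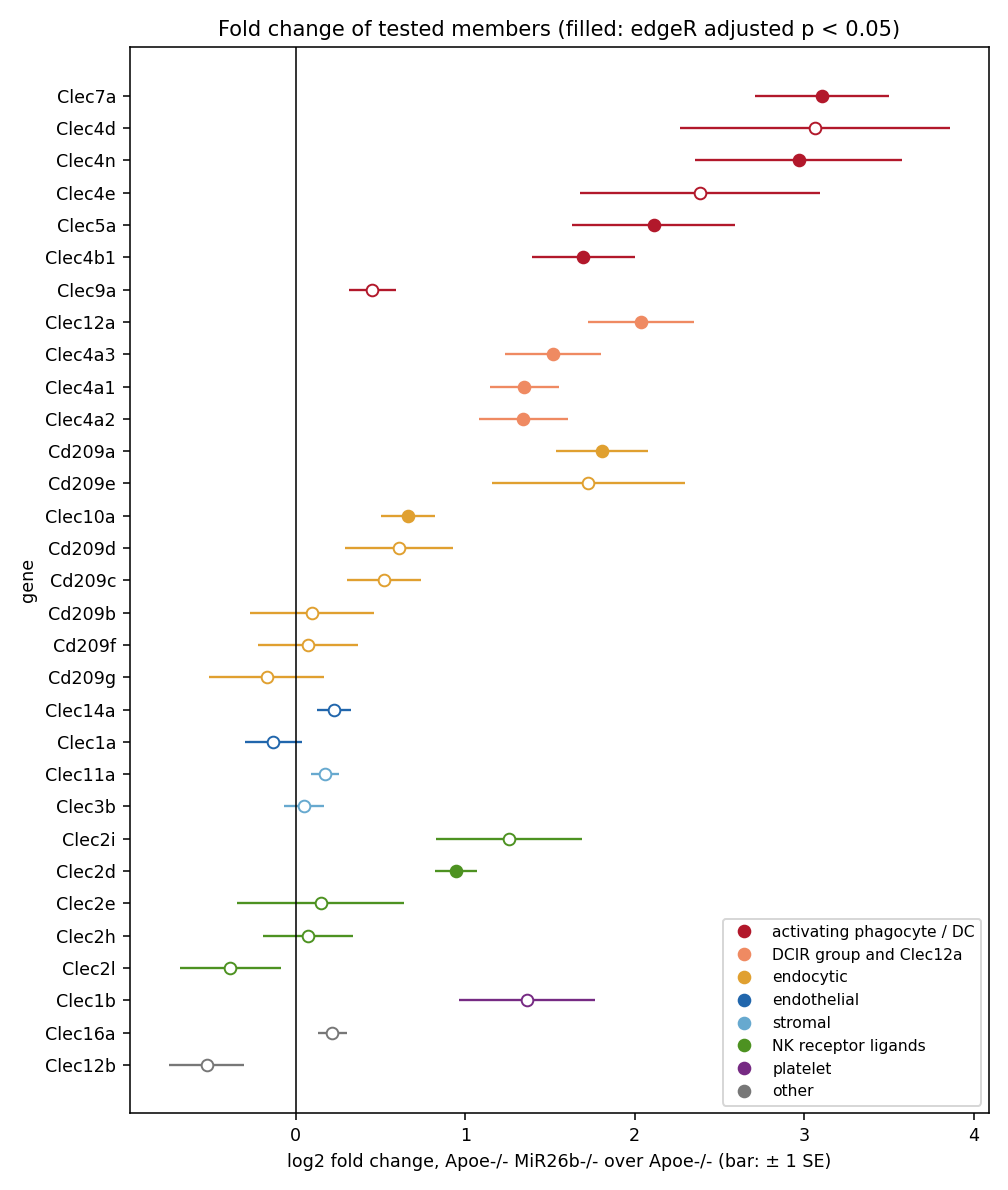
Log2 fold change of each tested member, Apoe-/- MiR26b-/- over Apoe-/- control, with bars of 1 SE and colours for roles; filled points passed the edgeR test. Every filled point lies right of 0, and the 4 endothelial and stromal points lie between -0.13 and 0.23.

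Of the 6 endothelial and stromal members, 4 were abundant enough to test, and none of the 4 passed. Clec14a, an endothelial receptor that binds the matrix protein Mmrn2 and acts in vessel sprouting, stood at 75.4, 64.8 and 77.0 CPM in the knockout libraries and at 55.8, 61.2 and 68.6 CPM in the controls. The groups overlapped, with a log2 fold change of 0.23 (SE 0.10, edgeR adjusted p = 0.179). Its partner Mmrn2 had a log2 fold change of 0.06 (SE 0.11). Clec1a, which recognises fungal melanin and is expressed by endothelium, stood at 9.30, 7.00 and 10.8 CPM in the knockout and at 10.6, 10.2 and 8.84 CPM in the controls (log2 fold change -0.13, SE 0.17, edgeR adjusted p = 0.639). Of 10 general endothelial markers, 3 were called higher (Egfl7, Tie1 and Cdh5), and their summed level was 2062 to 2270 CPM in knockout libraries and 1877 to 2349 CPM in controls.

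Clec3b encodes tetranectin, a secreted protein that binds a kringle domain of plasminogen. Its level was 223, 238 and 302 CPM in the knockout libraries and 236, 253 and 249 CPM in the controls, with knockout replicate 3 highest (log2 fold change 0.05, SE 0.12, edgeR adjusted p = 0.818). Clec11a encodes a secreted growth factor of bone and marrow stroma, also called osteolectin. It stood at 70.9, 74.6 and 70.6 CPM in the knockout and at 65.2, 70.0 and 56.4 CPM in the controls. These groups did not overlap, but the log2 fold change of 0.17 was not called (SE 0.08, edgeR adjusted p = 0.219). Its receptor subunit Itga11 had a log2 fold change of 0.60 (SE 0.15, edgeR adjusted p = 0.054). Among 9 fibroblast markers, 5 were called higher, with a summed level of 5033 to 6261 CPM in knockout libraries and 3638 to 4009 CPM in controls.

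The ligands of natural killer cell receptors, encoded by the Clec2 cluster, held 1 called member. Clec2d (ENSMUSG00000030157, chromosome 6, 129180615 to 129186534, plus strand) encodes Clr-b, which inhibits natural killer cells through Klrb1b. It stood at 47.1, 44.7 and 34.8 CPM in the knockout libraries and at 20.4, 23.5 and 21.8 CPM in the controls. Its groups were far apart relative to their spread, with a log2 fold change of 0.95 (SE 0.12, edgeR adjusted p = 0.0186). With the fat covariate the fold was 0.79 on the log2 scale and it was still called (adjusted p = 0.038). Over all settings its adjusted p ranged between 4.93e-27 and 0.0951. The receptor Klrb1b also rose, at 2.19, 2.13 and 1.23 CPM in the knockout and 0.548, 0.192 and 0.209 CPM in the controls (log2 fold change 2.54, SE 0.45, edgeR adjusted p = 0.031). Of the words of Clec2d, 11.8% occur in other genes, mostly of the same cluster.

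The other tested Clec2 genes had lower levels and were not called. Clec2i, which encodes Clr-g, stood at 3.48, 3.32 and 2.05 CPM in the knockout and at 1.46, 1.71 and 0.533 CPM in the controls, without overlap (log2 fold change 1.26, SE 0.43, edgeR adjusted p = 0.106); DESeq2 called it. Clec2e ranged from 0.114 to 0.487 CPM in knockout libraries and from 0.247 to 0.302 CPM in controls. Clec2h ranged from 0.281 to 0.361 CPM in the knockout and from 0.246 to 0.384 CPM in the controls. Clec2l, known from neurons, ranged from 0.225 to 0.247 CPM in the knockout and from 0.208 to 0.380 CPM in the controls. These 3 had edgeR adjusted p of 0.869, 0.884 and 0.431 and at most 26.3 estimated counts in a library.

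Clec1b encodes CLEC-2, the podoplanin receptor of platelets. Its level was 3.82, 6.38 and 2.14 CPM in the knockout libraries and 1.95, 1.56 and 1.29 CPM in the controls, without overlap (log2 fold change 1.36, SE 0.40, edgeR adjusted p = 0.0746). DESeq2 called it higher. Of 6 tested platelet markers edgeR called 0, and 1, Pf4, which macrophages also express, had an unadjusted p under 0.05 and was called by DESeq2. Their summed level was 27.8 to 38.5 CPM in knockout libraries and 20.5 to 27.3 CPM in controls. The ligand Pdpn, listed in a pair of identical rows, stood at 34.7, 36.1 and 13.5 CPM in the knockout and at 9.05, 12.2 and 9.68 CPM in the controls (log2 fold change 1.45, SE 0.37, edgeR adjusted p = 0.054).

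Clec12b, an inhibitory receptor, was the member with the lowest log2 fold change, -0.53 (SE 0.22, edgeR adjusted p = 0.168). It stood at 0.674, 0.513 and 0.795 CPM in the knockout and at 1.04, 0.980 and 0.837 CPM in the controls, without overlap. Clec16a, which acts in mitophagy and is named after the family rather than for a sugar receptor, stood at 38.3, 40.1 and 32.5 CPM in the knockout and at 32.3, 30.6 and 32.6 CPM in the controls. Its log2 fold change was 0.21 on counts (SE 0.09, edgeR adjusted p = 0.149), but on the deposited TPM scale the knockout was the lower group, at 13.3, 13.2 and 15.6 TPM against 17.9, 14.6 and 16.8 TPM in the controls.

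The members that failed the low-count filter are too low to judge. Their highest estimated count in any library was 22.6 for Clec2g, 13.3 for Clec18a, 10.1 for Clec4g, the liver sinusoidal lectin, and 8.2 for Clec4a4. It was 5.1 for Clec4f, a receptor of Kupffer cells, 2.7 for Clec3a, a cartilage lectin, 1.8 for Clec2f and 1.0 for Clec4b2. Clec2j and Clec2m had 0 counts in every library, which at this depth allows up to 0.0576 CPM in the library with the smallest scaled total. Among the 6 endothelial and stromal members, Clec4g and Clec3a belong to these.

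Levels per transcript length, from the deposited TPM values, placed the members in a different order in the 2 groups. In both groups Clec3b was the highest member, at 519 ± 83.1 TPM in the knockout and 496 ± 14.8 TPM in the controls (SD, n = 3 each). In the controls it was followed by Clec11a (34.4 ± 3.67 TPM), Clec2d (33.8 ± 2.28) and Clec14a (21 ± 2.15), the first 2 of which did not differ beyond their spread. Clec7a was the 8th member in the controls, at 10.5 ± 1.73 TPM, close to Cd209f at 12.9 ± 5.32 TPM. In the knockout Clec7a was the 2nd, at 95.2 ± 43.4 TPM, followed by Clec2d at 66.3 ± 10.6 TPM, Clec11a at 39.6 ± 1.23 TPM and Clec4n at 32.1 ± 19.9 TPM. The spread of Clec7a and Clec4n in the knockout comes from replicate 3, which had 48.0 and 9.12 TPM, so their places among these neighbours do not hold beyond it.

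Knockout replicate 3 differed from the other knockouts to an extent that varied between members. As a share of the mean of knockout replicates 1 and 2, its CPM was 16.4% for Clec4d, 17.6% for Clec4e, 22.2% for Clec4n and 30.8% for Clec5a. It was 38.3% for Clec7a and 52.9% for Clec12a, and 60.4% to 66.5% for the 3 DCIR genes. For Cd209a it was 85.2%, for Clec10a 103%, for Clec9a 105% and for Clec4b1 110%. The summed macrophage markers of that library stood at 40.9% of the other knockouts, the summed foam cell markers (such as Trem2, Spp1 and Gpnmb) at 19.1%, and the resident macrophage markers at 97.7%. The summed markers of the cross-presenting dendritic cell type stood at 57.4% and those of the other conventional type at 57.2%. In knockout replicates 1 and 2 the former sum was led by Irf8 and Wdfy4, neither of them called. Irf8 (39.96, 45.52 and 18.65 CPM in the knockout libraries), Wdfy4, Xcr1, Batf3 and Itgae were lowest in replicate 3. Cadm1 (9.15, 10.3 and 8.77 CPM) and Tlr3 (20.8, 16.2 and 16.7 CPM) stayed close to the other knockouts there. The sum of the other conventional type was led in knockout replicates 1 and 2 by Sirpa and by Itgax, which is also in the foam cell list. Sirpa stood at 196.7, 234.9 and 87.99 CPM in the knockout libraries, and Itgax, Flt3 and Mgl2 were also lowest in replicate 3. In contrast, Zbtb46 (22.46, 24.87 and 25.40 CPM), Irf4 (5.41, 5.64 and 10.97 CPM) and Cd24a were highest in replicate 3. These shares describe 1 library and take no account of the control level. A gene with a small fold keeps a high share even where replicate 3 equals the controls. Clec9a, for example, had a control mean of 3.21 CPM and a knockout mean of 4.39 CPM. The order of the shares, of members and of marker lists, therefore depends in part on the size of the fold.

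The members were also set beside the macrophage markers within each library. Per 1000 CPM of summed markers, Clec7a had 26.5, 29.1 and 26.1 CPM in the knockout libraries and 13, 10.3 and 11.6 CPM in the controls, without overlap. Clec12a had 7.67, 8.12 and 10.2 CPM on that scale in the knockout and 8.13, 7.88 and 5.84 CPM in the controls, which overlap. Lyz2 is the largest part of that sum in every library, so a mean over the markers on the log2 scale was added after seeing the data. On this scale, the level of Clec7a minus the mean of the 11 markers was -0.69, -0.57 and -0.89 in the knockout libraries and -1.87, -2.21 and -1.92 in the controls. The groups did not overlap, and their means differed by 1.29. Clec12a just cleared the controls on this scale, at -2.46, -2.40 and -2.23 in the knockout and -2.53, -2.58 and -2.88 in the controls, a difference of 0.30. For Clec4n (0.95), Clec4d (0.92), Clec4e (0.28), Clec5a (0.21) and Cd209a (0.07) the groups overlapped on this scale, as they did for Clec4b1 and the 3 DCIR genes. Relative to the markers, Clec10a was lower in the knockout, at -3.26, -3.20 and -2.07 against -1.88, -1.72 and -1.94 in the controls. Clec9a (difference -1.24), Cd209f (-1.54) and Cd209g (-1.75) were also lower without overlap. A denominator that rose in the knockout lowers every member that rose less, so these values describe proportions and carry no test.

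**Figure D4:**
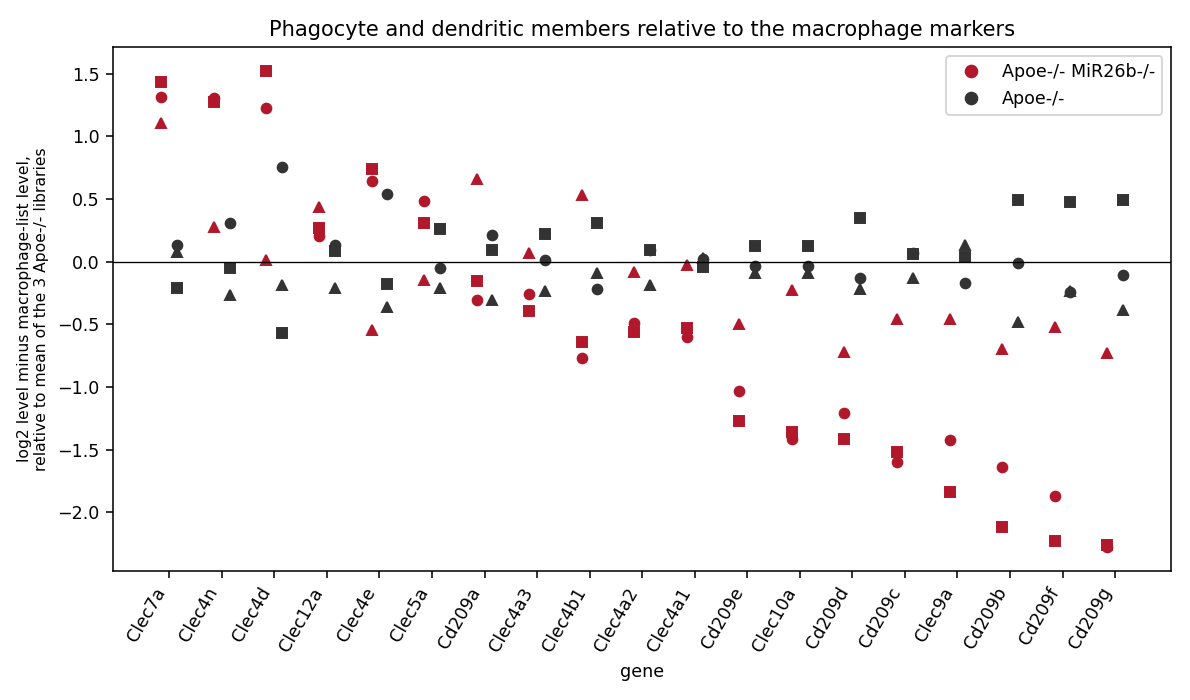
Log2 level of each tested phagocyte and dendritic member minus the mean log2 CPM of the macrophage markers, relative to the mean of the 3 Apoe-/- control libraries (red: Apoe-/- MiR26b-/-, black: Apoe-/- control; circle, square and triangle: replicates 1, 2 and 3). Clec7a and Clec12a lie above the controls in all 3 knockout libraries, and Clec10a, Clec9a and most Cd209 genes lie below them.

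Most members lie in 4 gene clusters, and neighbours within them had different values. Of the 9 genes of the Clec4 cluster (chromosome 6, 122921848 to 123289870), 7 were tested and 5 rose. Within it, the DCIR genes had log2 fold changes of 1.34 to 1.52, and Clec4n, Clec4d and Clec4e at the other end had 2.38 to 3.06. In the cluster that runs between Clec12a and Clec7a (chromosome 6, 129342691 to 129472779), all 6 genes were tested. The outer pair, Clec12a and Clec7a, rose, and Clec12b, Clec1b, Clec9a and Clec1a between them were not called. Clec1a, the endothelial member, is the direct neighbour of Clec7a, and their log2 fold changes were -0.13 and 3.11. Of 7 genes in the Clec2 cluster, 4 were tested and 1 rose, and of the 8 genes that hold Clec4g and the Cd209 genes on chromosome 8, 7 were tested and 1 rose. Over all tested rows 6.5% were called higher, and 1 gene of 4 or of 7 is too few to set apart from that share.

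**Figure D5:**
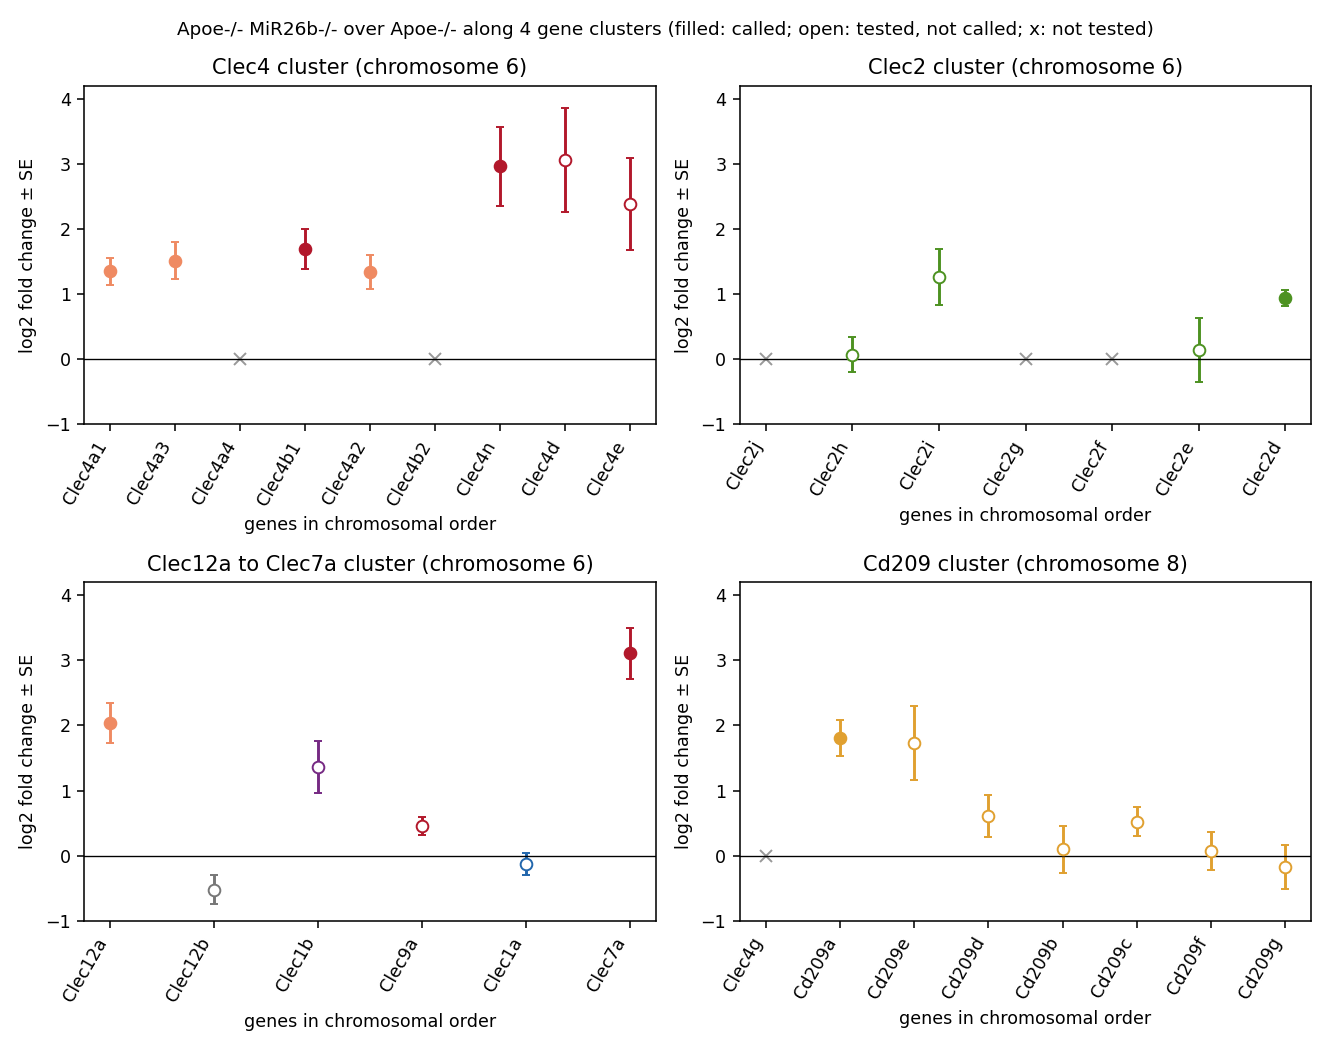
Log2 fold change (Apoe-/- MiR26b-/- over Apoe-/- control, bar 1 SE) of members in chromosomal order in 4 clusters; filled points were called, open points were tested and not called, and crosses mark genes too low to test, placed at 0 for display. In the cluster that runs between Clec12a and Clec7a the called genes are the outer pair.

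Genes of the pathway behind the activating receptors were read from a list of 19. All were tested, 8 rose and 0 fell by edgeR, with a median log2 fold change of 1.46. Of all tested rows, 6.5% were called higher and 3.84% lower. At an unadjusted p under 0.05, 15 were higher and 0 lower, and DESeq2 called 12 higher and 0 lower. The adaptors rose most: Tyrobp stood at 87.1, 99.8 and 35.1 CPM in the knockout libraries and at 16.5, 17.6 and 13.4 CPM in the controls (log2 fold change 2.23, SE 0.38, edgeR adjusted p = 0.030). Fcer1g stood at 56.8, 67.5 and 23.9 CPM in the knockout and at 13.3, 13 and 9.0 CPM in the controls (2.07, SE 0.39, 0.033). The phospholipase Plcg2 had a log2 fold change of 0.71 (SE 0.15, edgeR adjusted p = 0.038). Card9 and Syk, named after their values were seen, had log2 fold changes of 1.6 (SE 0.36, edgeR adjusted p = 0.043) and 1.39 (SE 0.40, 0.072). Of 3 phosphatases that bind inhibitory motifs, Inpp5d rose (1.48, SE 0.31, edgeR adjusted p = 0.039), Ptpn11, which is expressed in most cells, fell (-0.28, SE 0.06, 0.042), and Ptpn6 was not called (1.61, SE 0.46, 0.069).

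C-type lectin-like genes outside the Clec and Cd209 symbols numbered 23 in the list, all tested, of which 11 rose and 1 fell, with a median log2 fold change of 0.65. Over all tested rows, 6.5% were called higher and 3.84% lower. The list spans several cell types. Cd93, an endothelial and myeloid relative of Clec14a, stood at 161, 166 and 155 CPM in the knockout libraries and at 113, 106 and 114 CPM in the controls (log2 fold change 0.53, SE 0.06, edgeR adjusted p = 0.012). The endothelial selectins Sele and Selp, which bind leukocytes, rose by 2.16 (SE 0.35) and 0.82 (SE 0.13), with an adjusted p of 0.027 each. Klrd1, a natural killer cell receptor subunit, rose by 2.46 (SE 0.37, edgeR adjusted p = 0.025). The 1 gene that fell was Ly75, the endocytic receptor DEC-205 (log2 fold change -0.64, SE 0.11, edgeR adjusted p = 0.030).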

How the data were processed

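The submitters' processing notes name kallisto 0.46.2, Trim Galore 0.6.5 and FastQC 0.11.8, and the build GRCm38. The authors deposited estimated counts per gene, on which 1 read was worth between 0.9004 and 1.0685 depending on the library, and a TPM table that they rescaled (column sums 955527 to 1034723), used here as a signal for levels per length. Strandedness is not given in the sources used here, so overlapping genes cannot be separated.

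Estimated counts were rounded, filtered with filterByExpr (minimum count 10), scaled by TMM and compared over all rows by the quasi-likelihood F-test of edgeR 4.0.16 in R 4.3.3, knockout over control, with Benjamini-Hochberg adjustment and calls at an adjusted p under 0.05. The SE is the log2 fold change divided by the root of F. The fit was tested on simulated data in which all genes had the same dispersion and no library stood apart from its group. Knockout replicate 3 does stand apart here, so that test does not show how the fit behaves on these libraries. All tested members were named with their values, untested members with their highest count, and other genes only from lists (up to 4 of lowest p, and defining markers). A gene that this rule names is not reported here. The members and lists were chosen with earlier results of these data known. Alternatives were other scaling and filters, DESeq2 1.42.0, limma 3.58.1 (voom, and log2(TPM + 1) or log2(TPM + 0.1)), a replicate block, summed copies, a fat marker covariate and omission of each library. Removing the value of 1 read and the DESeq2 fits without a library were chosen after seeing the data. Replicates of a group differed by more than sampling noise (mean chi-square per gene 11.1 to 99.8 in every pair). Words of 31 bases, 3′ UTRs and coordinates came from GENCODE mouse release 21 and promoters from RefSeq, with 33 of 41 members matched. A planned comparison of protein sequences was not run.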

Additional observations from a re-analysis of the deposited data

How the results depend on the processing

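No member was called lower in any setting, none of the 11 members called with all libraries changed sign, and no endothelial or stromal member was called. Median-of-ratios scaling, library size alone, no low-count filter, summed copies and the value of 1 read undone each gave 11 members higher, and a mean log2 CPM of at least 1 gave 10 of 23 tested. DESeq2 called 2067 rows higher and 1333 lower, with 15 members higher. Limma-voom called 559 rows higher and 514 lower, with 8 members higher; limma on log2(TPM + 1) called 461 higher and 251 lower, and on log2(TPM + 0.1) 641 higher and 301 lower, with 8 members each. The fat covariate gave 104 rows higher and 91 lower, 1 member higher and 0 phagocyte and dendritic members, with 13 members at an unadjusted p under 0.05; the cause was not tested. Leaving out 1 library gave 0 to 3127 rows higher, 0 to 2552 lower, 0 to 16 members higher and 0 to 12 phagocyte and dendritic members higher over edgeR and DESeq2. Without control replicate 1 or 3, edgeR called 0 rows of any kind, although 4056 rows had an unadjusted p under 0.05 both times and DESeq2 called 1482 and 1445 higher. Without knockout replicate 3, edgeR called 3051 higher and 2028 lower, and without control replicate 2 DESeq2 called 1880 higher and 1183 lower. Deviations of same-numbered libraries from their group means had correlations of -0.155, 0.261 and 0.053. The labels used here give no pairing, and 3 libraries per group are too few for these values to settle it. With the replicate block 1295 rows were higher and 700 lower, and 12 members higher, with Clec2i and Clec4e gained and Clec10a lost. Depth limits the judgement of members under about 10 counts.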
